A study of Mus musculus with 16 samples.

Results

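Gene expression in the left ventricle of the heart was compared with that in subcutaneous white adipose tissue (scWAT) of wild-type mice. The libraries were chosen by their labels for genotype and tissue, and no measured value entered the choice. They were 9 of the 16 libraries of the series, 4 of left ventricle (mice A5, A7, A8 and A14) and 5 of scWAT (the same 4 mice and A12). All mice were of the C57BL/6J strain and 28 weeks old, and the labels call them wild-type without naming an allele or a treatment, so whether they carried a conditional allele or a Cre transgene is not stated. The other 7 libraries are labelled as coming from mice with HuR (Elavl1) deleted in adipocytes, and they enter below through 1 alternative fit and 1 check of direction. RNA came from frozen whole tissue, and each gene has a TPM value, its abundance per length of transcript scaled to a fixed total of 1e+06 in each library.

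The left ventricle pumps blood into the body. Its cardiomyocytes hold sarcomeres, which shorten when calcium leaves the sarcoplasmic reticulum, and many mitochondria, which in the adult burn mainly fatty acids. White adipocytes store fatty acids as triglyceride in 1 large lipid droplet, release them by lipolysis, and secrete hormones such as leptin and adiponectin that act on other organs, the heart among them. Both organs also hold endothelial cells, fibroblasts, macrophages and nerves, and the bulk values below average over all of them.

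Of 33641 gene symbols, 13727 had a mean of at least 1 TPM in at least 1 of the tissues and were tested with limma on log2(TPM + 1). A level of 1 TPM was reached in both tissues by 10970 genes, in heart alone by 501 and in scWAT alone by 2256. Within heart, libraries correlated across genes at r = 0.978 to 0.990, within scWAT at 0.945 to 0.972, and between tissues at 0.667 to 0.695. As deposited, 1174 genes (8.55%) were higher in heart and 10661 (77.7%) higher in scWAT at an adjusted p under 0.05, with an all-gene median log2 fold change of -1.22, heart minus scWAT. The share of TPM taken by mitochondrially encoded genes was 54.7% ± 3.99 (SD, n = 4) in heart and 8.70% ± 3.27 (SD, n = 5) in scWAT, and TPM leaves the rest to all other genes. Removing those genes and rescaling the rest moved the median to -0.43, scaling by median-of-ratios factors moved it to -0.03, quantile normalization to -0.07, and 4686 genes (34.1% of those tested) turned direction between these 4 scalings. A gene is therefore called higher in a tissue below where it passed in the same direction under all 4 (for mitochondrially encoded genes, under the other 3). The filter of 1 TPM was applied again after median-of-ratios scaling, which left 13519 genes. A gene that fell out there, such as Cd3e, counts as not called though it was not tested. As deposited, 86.2% of tested genes passed in either direction, and in 79.2% the 2 groups did not overlap. With a further limit of 4-fold, 2.92% were higher in heart and 20.9% in scWAT. The rule of all 4 scalings left 1169 genes (8.52%) higher in heart and 4582 (33.4%) higher in scWAT. Fold changes are log2(TPM + 1) as deposited, heart minus scWAT, which understates low genes, and p-values are limma's, adjusted by the Benjamini-Hochberg method. Heart and scWAT libraries also differ in the way they are named, the heart names alone carrying a run, lane and index, so tissue and sequencing run cannot be told apart.

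**Figure D1:**
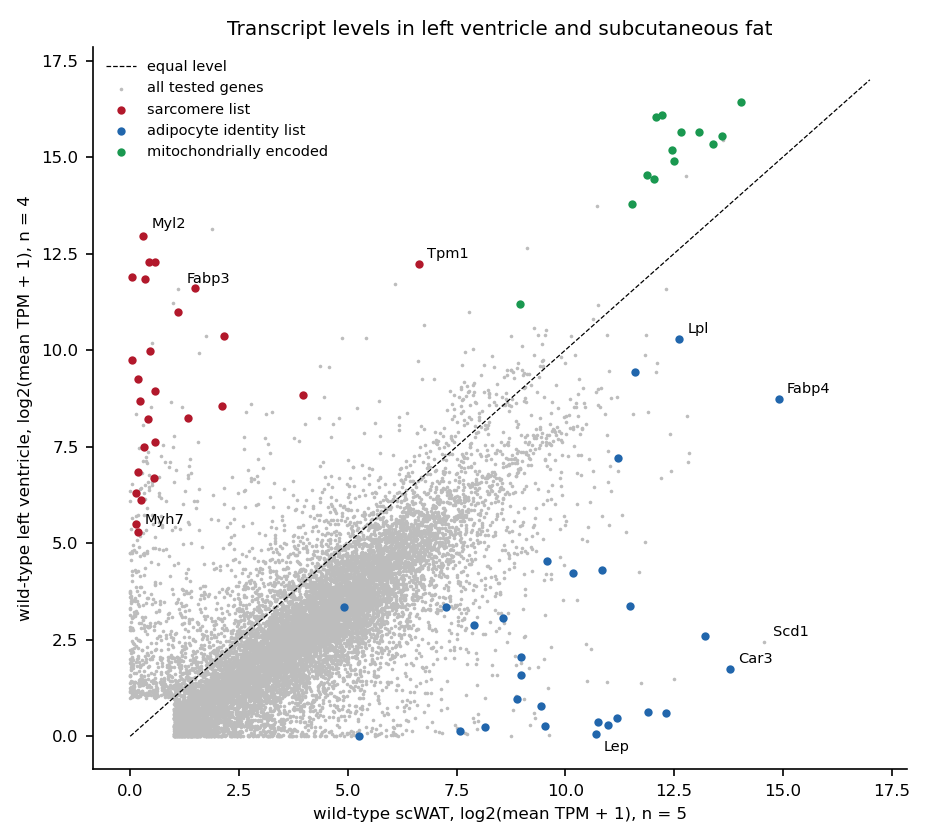
Mean level of each tested gene in wild-type scWAT (x axis) and wild-type left ventricle (y axis), both as log2(mean TPM + 1). Grey points are all tested genes, coloured points are the sarcomere (26), adipocyte identity (28) and mitochondrially encoded (13) lists, and the dashed line marks equal levels. The cloud of genes lies below the line, by a median log2 fold change of -1.22, while the sarcomere genes stand at the left edge and most adipocyte genes near the bottom.

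Genes of the contractile apparatus stood furthest apart. Of the sarcomere list, 26 of 26 members were tested and 26 were higher in heart, with a median log2 fold change of 8.08 against -1.22 for all tested genes. Myl2, the regulatory light chain of ventricular myosin, stood at 7536, 8027, 8278 and 7849.95 TPM in the hearts of A5, A7, A8 and A14, against 0, 0.841, 0.327, 0 and 0 TPM in the scWAT of A5, A7, A8, A12 and A14. The log2 fold change was 12.69 (SE 0.19, adjusted p = 4.2e-13). That all 4 hearts lay above all 5 scWAT libraries was a condition for naming it among the 12 genes furthest apart. Myh6, the fast alpha myosin heavy chain of the adult mouse heart, stood at 2170.4, 4099, 4769 and 4104 TPM in heart, at 0.146 TPM in the scWAT of A5 and at 0 in the other 4 (log2 fold change 11.79, SE 0.21, adjusted p = 5.1e-13). Its slow counterpart Myh7, the beta heavy chain, was much lower in heart at 13.4, 58.3, 72.1 and 33.2 TPM, and at no more than 0.121 TPM in scWAT. Actc1, the cardiac actin, ran from 3839.8 to 6339 TPM in heart and from 0 to 0.731 TPM in scWAT, and Tnnt2, cardiac troponin T, from 3478 to 5898 TPM and from 0.0116 to 1.63 TPM. The troponins Tnni3 and Tnnc1 had log2 fold changes of 10.13 and 9.89, the myosin-binding protein gene Mybpc3 of 9.67, the light chain Myl3 of 11.49 and the Z-disc protein gene Myoz2 of 9.08. Tpm1, which encodes a tropomyosin that many cells use, had the highest level in scWAT of the members named here, 57.1 to 196 TPM against 4267 to 5200.4 TPM in heart.

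Beside the sarcomere, the genes furthest apart in favour of heart dealt with oxygen, fatty acids, calcium and energy. Mb, which encodes the oxygen carrier myoglobin, stood at 7969.7, 8969, 10356 and 8708 TPM in the hearts of A5, A7, A8 and A14, against 0.736, 3.98, 7.02, 0.709 and 0.904 TPM in the scWAT of A5, A7, A8, A12 and A14 (log2 fold change 11.57, SE 0.42, adjusted p = 1.8e-10). Fabp3, the fatty acid binding protein of heart and muscle, ran from 2565 to 3409 TPM in heart and from 0.229 to 2.24 TPM in scWAT. Ckmt2, the creatine kinase of muscle mitochondria, ran from 877 to 1287 TPM in heart and from 0 to 1.59 TPM in scWAT. No overlap between the groups was a condition for naming the 12 genes furthest apart, Mb, Fabp3 and Ckmt2 among them. Of all tested genes, 79.2% met that condition. The heart of A5 was the lowest of the 4 for Myl2, Myh6, Actc1, Tnnt2, Mb, Fabp3 and Ckmt2, and it also had the highest mitochondrially encoded share, 60.6% against 51.9% to 53.2%.

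Promoters of 6 of these tissue genes are shown, since each holds a motif of a factor known for its tissue. The windows are the 250 bases before the annotated start, from RefSeq on GRCm38.p6, 5′ to 3′ on the gene's strand, and capitals mark the motif. In Actc1 (chr2:114052876-114053125, minus strand) and Myl3 (chr9:110763428-110763677, plus strand) the capitals are a CArG box, the site of serum response factor. In Myoz2 (chr3:123034988-123035237, minus strand) and Pgam2 (chr11:5803797-5804046, minus strand), the muscle phosphoglycerate mutase gene described below, they match the pattern of a MEF2 site. In Plin1 (chr7:79732777-79733026, minus strand) and Lep (chr6:29059971-29060220, plus strand), both genes of the adipocyte, they are a C/EBP half-site motif or its reverse complement. Promoters were picked for holding a match, and a match is a run of letters, not a site shown to be bound.
Actc1: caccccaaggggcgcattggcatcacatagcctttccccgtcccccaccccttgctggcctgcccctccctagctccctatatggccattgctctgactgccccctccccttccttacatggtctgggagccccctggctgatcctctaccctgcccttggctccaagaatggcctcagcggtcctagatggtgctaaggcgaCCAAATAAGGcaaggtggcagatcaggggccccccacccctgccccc
Myl3: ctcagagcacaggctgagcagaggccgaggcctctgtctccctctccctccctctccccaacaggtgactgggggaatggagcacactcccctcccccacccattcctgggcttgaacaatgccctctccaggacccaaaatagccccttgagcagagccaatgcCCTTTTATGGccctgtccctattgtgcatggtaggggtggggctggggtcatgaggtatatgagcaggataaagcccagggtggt
Myoz2: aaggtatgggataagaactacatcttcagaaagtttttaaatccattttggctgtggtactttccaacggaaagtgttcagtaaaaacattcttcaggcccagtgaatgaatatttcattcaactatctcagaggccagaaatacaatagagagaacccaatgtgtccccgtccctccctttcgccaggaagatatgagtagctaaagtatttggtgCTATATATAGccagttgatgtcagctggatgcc
Pgam2: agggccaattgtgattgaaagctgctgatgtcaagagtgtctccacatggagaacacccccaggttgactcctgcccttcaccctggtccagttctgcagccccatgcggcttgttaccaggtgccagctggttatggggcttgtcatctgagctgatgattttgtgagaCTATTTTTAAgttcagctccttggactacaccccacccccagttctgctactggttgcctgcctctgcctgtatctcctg
Plin1: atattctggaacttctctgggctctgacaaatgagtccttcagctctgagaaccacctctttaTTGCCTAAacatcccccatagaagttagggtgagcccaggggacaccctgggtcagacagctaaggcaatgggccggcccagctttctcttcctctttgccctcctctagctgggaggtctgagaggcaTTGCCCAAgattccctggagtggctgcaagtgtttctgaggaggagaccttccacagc
Lep: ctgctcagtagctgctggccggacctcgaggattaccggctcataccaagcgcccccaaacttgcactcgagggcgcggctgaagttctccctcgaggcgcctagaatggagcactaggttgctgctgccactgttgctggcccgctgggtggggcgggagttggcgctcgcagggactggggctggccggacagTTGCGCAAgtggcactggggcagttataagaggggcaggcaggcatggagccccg

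The CArG box lay 47 to 38 bases before the start in Actc1 and 85 to 76 bases before it in Myl3, and the MEF2 match 33 to 24 bases before it in Myoz2 and 80 to 71 bases before it in Pgam2. The MEF2 pattern can also match a TATA box, and the letters and place of the match in Myoz2 allow either reading. The MEF2 shares below do not separate the 2. Plin1 held the C/EBP motif at 187 to 180 and at 58 to 51 bases before its start, and Lep at 55 to 48 bases. Over both strands of these windows, 10110 of the 13727 tested genes had a promoter entry. The MEF2 site was found in 2.2% of them, in 7.14% of the 644 genes called higher in heart and apart by 4-fold or more relative to the median of all genes, and in 1.07% of the 561 such genes higher in scWAT. The CArG box was found in 1.46%, 3.11% and 1.07%, and the GATA site AGATAA in 7.4%, 10.9% and 7.13%. The C/EBP motif was found in 9.3% of all, in 10.2% of the heart genes and in 12.7% of the scWAT genes. The MCAT site CATTCC stood at 13%, 16% and 12.7%, the E-box CANNTG at 62.2%, 71.6% and 64.2%, and the site of estrogen-related receptors at 0.366%, 0.776% and 0.178%. The DR1 site of nuclear receptors was found in 0.0396% of all windows, in 0.155% of the heart genes and in 0 of the scWAT genes. These shares are descriptions without a test, and no match says only that these letters are not in this window.

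Genes that move calcium in the cardiomyocyte followed the sarcomere. Of 17 listed, 16 were tested, 12 were higher in heart and 1 in scWAT, with a median log2 fold change of 4.99. Pln, which encodes phospholamban, the brake on the calcium pump, stood at 1852, 2503, 2765 and 2437 TPM in the hearts of A5, A7, A8 and A14, against 0.63 to 1.47 TPM in scWAT (log2 fold change 10.24, SE 0.17, adjusted p = 4.3e-13). Atp2a2, the pump itself, ran from 2523 to 4045 TPM in heart and from 47.1 to 81.7 TPM in scWAT. Ryr2, the release channel, ran from 70.3 TPM in A5 to 166 TPM in A14 and from 0.209 to 1.35 TPM in scWAT. Casq2 and Hrc, which bind calcium inside the store, had log2 fold changes of 7.37 and 8.11, and Jph2, which holds the store close to the surface membrane, of 6.10. Fkbp1b, whose product binds the release channel, was higher in scWAT, at 0.273 to 0.798 TPM in heart and 1.45 to 5.69 TPM in scWAT.

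Ion channel genes of the cardiac action potential were higher in heart in 15 of 20 tested members (22 listed), and in scWAT in 0. Kcnip2, a subunit of the transient outward potassium current, ran from 34.8 to 98.7 TPM in heart and from 0 to 0.54 TPM in scWAT, and Kcnj11, the pore of the ATP-sensitive potassium channel, from 34.3 to 62.4 TPM and from 0 to 0.307 TPM. Gja1, which encodes the main connexin of ventricular gap junctions, was higher in heart but present in both, at 60.3 to 103 TPM and 12.9 to 37.5 TPM.

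Most factors that set cardiomyocyte identity were higher in heart. Of 20 listed, 17 were tested, and 13 were higher in heart and 0 in scWAT, with a median log2 fold change of 1.90. Their summed level was 471 to 1003 TPM in heart and 78.3 to 101 TPM in scWAT, and those named next make up a small part of it. Nkx2-5 stood at 14, 28.5, 33.9 and 26.6 TPM in the hearts of A5, A7, A8 and A14 and was listed at 0 in all 5 scWAT libraries, as was Irx4, a ventricular homeobox gene that ran from 5.11 to 11.4 TPM in heart. Gata4 ran from 19.4 to 41.0 TPM in heart and from 0 to 0.286 TPM in scWAT, Tbx20 from 6.01 to 12.2 TPM and from 0 to 0.0521 TPM, and Hand2 from 9.53 to 19.6 TPM and from 0 to 0.347 TPM. Tbx5 was the exception among those named, with 1.20 to 1.58 TPM in scWAT beside 4.26 to 8.05 TPM in heart.

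Proteins that bind RNA were compared because the series is about one of them. Of 20 tested members of a list of muscle splicing factors and RNA-binding proteins (21 listed), 4 were higher in heart and 5 in scWAT, and the median log2 fold change of -1.04 was close to that of all genes. The 4 were Rbm20, the splicing factor of titin, Rbm24, Rbfox1 and Rbm38. Rbm20 stood at 18.7, 48.0, 58.5 and 51.7 TPM in the hearts of A5, A7, A8 and A14, against 0.292 to 0.668 TPM in scWAT, and Rbm24 at 32.5 to 62.2 TPM and at 0.0562 to 0.242 TPM. Celf2, which also acts in splicing, was higher in scWAT, at 82.4 to 97.8 TPM against 8.24 to 15.9 TPM. Elavl1, the gene of HuR, stood at 6.66, 12.6, 12 and 10.4 TPM in heart and at 33.4, 34.5, 27.6, 19.5 and 19.0 TPM in scWAT. The groups did not overlap as deposited (log2 fold change -1.27, SE 0.24, adjusted p = 0.000255), but the fold change was 0.10 after median-of-ratios scaling and also 0.10 after quantile normalization, so its direction depended on the scaling.

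The genes furthest apart in favour of scWAT were those of the adipocyte. Of 30 genes listed for adipocyte identity, 28 were tested, 27 were higher in scWAT and 0 in heart, with a median log2 fold change of -7.35. Adipoq, which encodes adiponectin, stood at 4315, 3956, 5775, 4489.6 and 6919.5 TPM in the scWAT of A5, A7, A8, A12 and A14, against 0.0355, 0.252, 1.72 and 0.0207 TPM in the hearts of A5, A7, A8 and A14 (log2 fold change -11.82, SE 0.28, adjusted p = 6.9e-12). Car3, a carbonic anhydrase abundant in fat, ran from 12092 to 16806 TPM in scWAT and from 0.189 to 7.45 TPM in heart, the largest fold change in favour of scWAT of the genes named by rule (log2 fold change -12.52, SE 0.45, adjusted p = 1.8e-10). Plin1, the coat protein of the lipid droplet whose promoter is shown above, ran from 1569.5 to 2277 TPM in scWAT and from 0.0226 to 0.698 TPM in heart, and Cidec, which fuses droplets, from 3676 to 3955 TPM and from 0 to 1.92 TPM. Pparg, the master regulator of adipocytes, was present in heart at 5.19 to 7.36 TPM and higher in scWAT at 191 to 290.3 TPM, and Cebpa ran from 1.40 to 2.51 TPM and from 418 to 579 TPM.

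**Figure D2:**
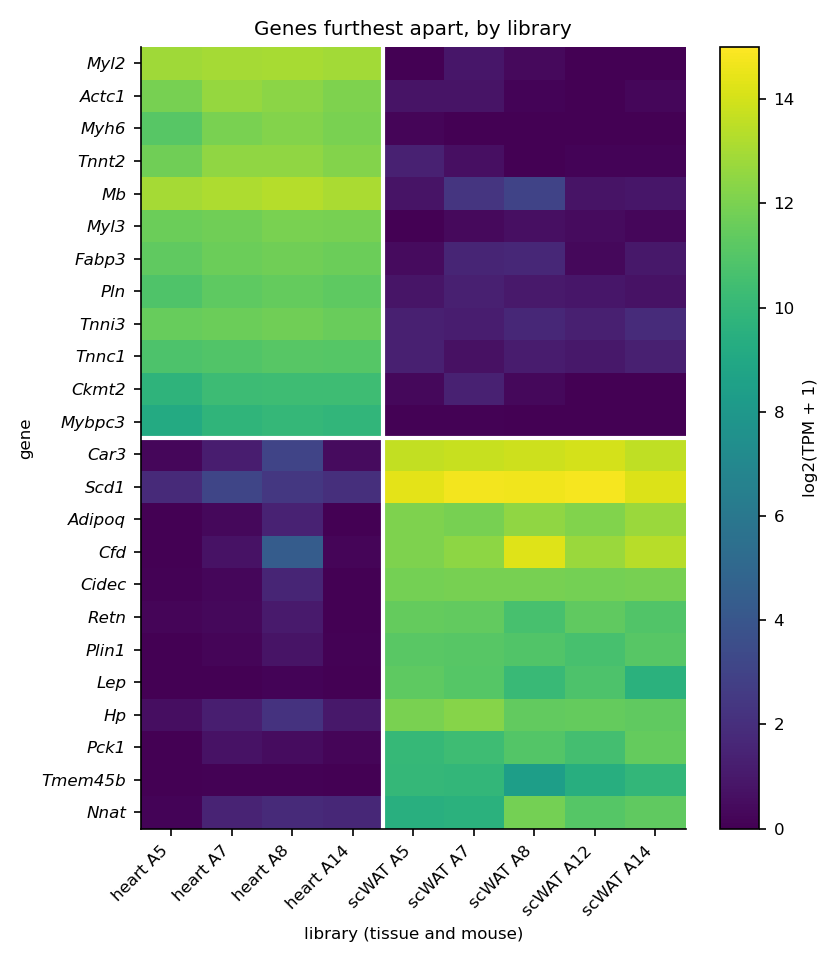
Levels of the 24 named genes furthest apart between the tissues, as log2(TPM + 1) in colour, in each of the 9 libraries (columns, tissue and mouse). The upper 12 rows are genes higher in left ventricle and the lower 12 genes higher in scWAT. These genes were picked for lying far apart with no overlap between the groups, so the contrast of colours between tissues follows from the choice. Among hearts, that of A8 shows the highest Cfd (19.5 TPM) and Car3 (7.45 TPM), and among scWAT libraries those of A7 and A8 show the highest Mb (3.98 and 7.02 TPM).

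Some fat genes of the highest level in scWAT were also far from 0 in heart. Fabp4, the adipocyte fatty acid binding protein, was the nuclear gene of highest mean level in scWAT, at 21839, 20854, 34390.3, 37056 and 38928 TPM in A5, A7, A8, A12 and A14, and stood at 275, 409, 564 and 449 TPM in the hearts of A5, A7, A8 and A14. Lpl, the lipoprotein lipase that frees fatty acids from lipoproteins in both organs, ran from 1037 to 1418 TPM in heart and from 4302 to 7948 TPM in scWAT, and Cd36, a fatty acid transporter, from 624 to 721 TPM and from 2943 to 3299.7 TPM. These 3 were higher in scWAT, by log2 fold changes of -6.17, -2.31 and -2.17. The adipocyte identity list, which holds Fabp4, summed to 2080, 2517, 3048 and 2824 TPM in the hearts of A5, A7, A8 and A14. Cfd, which encodes adipsin, stood at 0.0285, 0.648, 19.5 and 0.161 TPM in them, highest in A8. Adipoq and Cidec were also highest in that heart, at 1.72 and 1.92 TPM, while Scd1 was highest in that of A7. The part of attached fat in the heart values was not tested.

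Genes that make fatty acids were higher in scWAT in 22 of 24 members, all tested, and in heart in 0 (median log2 fold change -4.31). Scd1, the desaturase that makes oleate, stood at 21166, 27284, 26383, 28114 and 18997 TPM in the scWAT of A5, A7, A8, A12 and A14, against 2.47, 7.75, 4.38 and 2.99 TPM in the hearts of A5, A7, A8 and A14 (log2 fold change -12.22, SE 0.25, adjusted p = 1.6e-12). Fasn, the fatty acid synthase, stood at 2875, 2846, 421, 607 and 377 TPM in scWAT and at 0.995 to 5.81 TPM in heart. The scWAT of A5 and A7 was thus well above that of the other 3 mice. Acly, which makes cytosolic acetyl-CoA, had the same 2 libraries on top, at 689, 459, 83.6, 63.6 and 58.9 TPM, as had Acaca, the carboxylase of the next step, at 373, 334, 156, 104 and 122 TPM, and Slc25a1, the citrate carrier, at 784, 751, 302, 316 and 367 TPM. G6pdx, which supplies NADPH, had the same 2 on top by a smaller margin, at 292, 249, 237, 237 and 217 TPM, while Scd1 was highest in A12. Fasn, Acly, Acaca, Slc25a1 and G6pdx were higher in every scWAT library than in any heart.

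Most droplet and lipolysis genes were higher in scWAT. Of 18 tested (19 listed), 14 were higher in scWAT and 2 in heart, with a median log2 fold change of -4.04. Of all tested genes, 33.4% were higher in scWAT and 8.52% in heart. The lipases Pnpla2 (ATGL) and Lipe (HSL) ran from 1545 to 3279 TPM and from 1610.1 to 2036 TPM in scWAT, and from 70.0 to 211 TPM and 12.1 to 25.2 TPM in heart. The 2 higher in heart were Cideb and Plin5. Cideb was low, at 0.681 to 2.30 TPM against 0.186 to 0.821 TPM, and its groups overlap. Plin5 is the perilipin that ties droplets to mitochondria. Plin5 stood at 40.4, 45.2, 58.5 and 40.7 TPM in the hearts of A5, A7, A8 and A14, against 14.6, 9.83, 21.2, 13.0 and 53.9 TPM in the scWAT of A5, A7, A8, A12 and A14 (log2 fold change 1.25, SE 0.38, adjusted p = 0.008). The groups overlap through the scWAT of A14.

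Among hormones of fat, leptin and resistin had low transcript levels in heart. Of 35 listed adipokines and secreted factors 29 were tested, 20 were higher in scWAT and 0 in heart, and 7 turned with scaling. Of all tested genes, 33.4% were higher in scWAT and 8.52% in heart. The list as a whole summed to 304 to 544 TPM in heart and 24332.5 to 35610 TPM in scWAT. Lep, which encodes leptin, stood at 2440.3, 2128, 1142, 1831 and 764 TPM in the scWAT of A5, A7, A8, A12 and A14, a range of several fold, and at no more than 0.112 TPM in heart (log2 fold change -10.53, SE 0.29, adjusted p = 2.2e-11). Retn, which encodes resistin, ran from 1596 to 2845 TPM in scWAT and from 0.0337 to 1.12 TPM in heart, and Rbp4, the retinol carrier, from 339.9 to 979 TPM and from 0.263 to 1.30 TPM. Rarres2, the chemerin gene, had a log2 fold change of -5.57, Nrg4, a neuregulin of adipocytes, of -5.45, Angptl4, an inhibitor of lipoprotein lipase, of -7.42, and Igf1 of -5.89. Agt, the angiotensinogen gene, differed less and varied more, at 3.95, 11.8, 29.8, 29.7 and 23.2 TPM in scWAT and 0.932 to 1.32 TPM in heart.

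The receptors for these factors were called in both directions. Of 21 tested (22 listed), 7 were higher in scWAT and 4 in heart, and 9 turned with scaling. Of all tested genes, 33.4% were higher in scWAT, near the share in this list, 8.52% were higher in heart and 34.1% turned. Among the 4 was Cdh13, which encodes T-cadherin, a membrane protein that binds adiponectin, at 45.2, 59.0, 69.6 and 59.2 TPM in the hearts of A5, A7, A8 and A14 and 23.0 to 35.7 TPM in scWAT. Another was Agtr1a, the angiotensin receptor, at 9.11 to 17.3 TPM in heart and 4.21 to 8.48 TPM in scWAT, and another Erbb3, of the receptor family that neuregulins act through, at 1.25 to 3.52 TPM and 0.269 to 0.857 TPM. Adipor2, an adiponectin receptor, was higher in scWAT at 357 to 565 TPM against 21.9 to 30.2 TPM, and Cmklr1, the chemerin receptor, at 163 to 203 TPM against 3.83 to 10.4 TPM.

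The natriuretic peptide system, through which the heart signals to kidney, vessels and fat, split by role. Of 11 tested genes (12 listed), 4 were higher in heart and 3 in scWAT. The ligand Nppa stood at 108, 121, 313 and 160 TPM in the hearts of A5, A7, A8 and A14 and at 0 to 0.36 TPM in scWAT (log2 fold change 7.15, SE 0.27, adjusted p = 2.9e-10). The ligand Nppb stood at 39.3, 101, 98.6 and 128 TPM in heart and at 0.157 TPM in the scWAT of A8 and 0 in the other 4, and Corin, the protease that activates the ligands, at 33.4 to 58.6 TPM and at most 0.0412 TPM. On the side of removal, the clearance receptor Npr3 stood at 582, 542, 372, 553 and 281 TPM in the scWAT of A5, A7, A8, A12 and A14, against 2.16, 1.88, 2.40 and 3.90 TPM in heart (log2 fold change -7.00, SE 0.24, adjusted p = 1.2e-10). Mme, the neprilysin gene, whose product degrades the peptides, ran from 43.2 to 71.3 TPM in scWAT and from 2.24 to 3.08 TPM in heart. The signalling receptor Npr1 stood at 2.96 to 9.93 TPM in heart and 16 to 32.1 TPM in scWAT and did not pass under all scalings.

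Pairs of related genes give a comparison that no single factor per library can move, since the share of 1 gene in the sum of both is a ratio within the library. Quantile normalization is not such a factor, and the shares were taken from the deposited values. Of 40 pairs listed with the form known from heart or muscle first, 38 had both members tested, and 20 of these had the first form higher in heart and the second higher in scWAT. The share of the first form was above every scWAT library in every heart in 33 of the 38, below every scWAT library in 1, and overlapped in 4. In 25 pairs it was over 50% in every heart and under 50% in every scWAT library. The sides of each pair were chosen with the direction in these tissues known, so the counts describe the pairs and test nothing.

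Of the fatty acid binding proteins, Fabp3 made up 88.0% ± 1.87 (SD, n = 4) of the sum with Fabp4 in heart and 0.00413% ± 0.00362 (SD, n = 5) in scWAT. Of the carnitine palmitoyltransferases, which admit fatty acids to mitochondria, Cpt1b made up 95.2% ± 0.563 in heart and 12.9% ± 3.40 in scWAT. Of the nuclear-coded subunits of cytochrome c oxidase, Cox6a2 made up 93.8% ± 0.391 of the sum with Cox6a1 in heart and 0.263% ± 0.252 in scWAT, and Cox8b 86.7% ± 0.906 and 13.3% ± 7.36 of the sum with Cox8a. Glycolysis showed the same: Pgam2 made up 92.2% ± 1.75 of the mutase pair in heart and 2.67% ± 2.94 in scWAT, Eno3 90.3% ± 1.20 and 2.90% ± 1.47 of the enolase pair, and Pygm 99.6% ± 0.0555 and 3.24% ± 3.99 of the glycogen phosphorylase pair. The scWAT of A7 was high in genes of fast skeletal muscle (below), and there the shares were the highest of the 5 for Pgam2 (7.79%), Pygm (10.3%) and Cox6a2 (0.713%).

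Signalling and calcium pairs changed over as well. Adrb1 made up 97.9% ± 1.04 of the sum with Adrb3 in heart and 1.75% ± 0.867 in scWAT. Adrb1, the beta receptor of cardiomyocytes, stood at 2.49 to 6.29 TPM in heart and 2.03 to 4.53 TPM in scWAT, overlapping. The pair differed mainly through Adrb3, the receptor of adipocytes, at 0.061 to 0.207 TPM in heart and 64.5 to 263 TPM in scWAT. Pde3a, a phosphodiesterase of heart muscle, made up 89.5% ± 3.29 of the sum with Pde3b in heart and 0.972% ± 0.451 in scWAT. Ryr2 made up 93.8% ± 0.543 of the sum with Itpr1 in heart and 2.08% ± 1.33 in scWAT, and Ppara 72.6% ± 4.69 and 3.89% ± 2.43 of the sum with Pparg.

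The 13 mitochondrially encoded genes were above scWAT in every heart, and 10 were higher under the 3 scalings that keep them. Log2 fold changes ran from 1.97 (mt-Cytb) to 4.32 (mt-Atp6), and mt-Cytb turned to -0.07 with quantile normalization, while mt-Co2 and mt-Atp8 did not pass under it. mt-Co1, a core subunit of cytochrome c oxidase, stood at 96074, 84570.3, 84706 and 85672 TPM in the hearts of A5, A7, A8 and A14, against 13928, 13422, 13830 and 26001 TPM in the scWAT of A5, A7, A8 and A12 and 17130.4 TPM in that of A14. The scWAT of A12 had the highest mitochondrially encoded share of its tissue, 14.4% against 6.14% to 8.41% in the other 4. These are levels of transcripts per length, and neither the number of mitochondria nor of genomes was measured.

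How these values are divided depended on nuclear copies of mitochondrial sequence. Aligning the annotated transcripts to the 13 genes found 7 pseudogenes at 95% identity or more over at least 80% of their length, among them Gm10925 (100% identical to mt-Atp6), Gm28437 (100% to mt-Co3), Gm28661 (100% to mt-Co2), Gm29216 (99.8% to mt-Co1) and Gm28438 (99.7% to mt-Nd3). Together they took 8.44% of the TPM in heart and 3.23% in scWAT. In heart, 100% of the sum of mt-Atp6 and Gm10925 was placed on mt-Atp6 in every library, while in scWAT the share was 12.5%, 61.0%, 71.3%, 53.4% and 17.2% in A5, A7, A8, A12 and A14. mt-Co3 held 91.6% to 98.8% of its sum in heart and 32.3% to 56.8% in scWAT, and mt-Nd3 11.0% to 16.8% and 5.66% to 36.4%. The means of the sums were 69554 and 10551 TPM for mt-Atp6 and its copy, in heart and scWAT, against 69552 and 4758 TPM for mt-Atp6 alone, so the fold change of the single gene is larger than that of the sum. Gm29216 and Gm28661 were among the 10 nuclear genes of highest mean level in both tissues. With the genes and copies removed together, the all-gene median was -0.20.

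**Figure D3:**
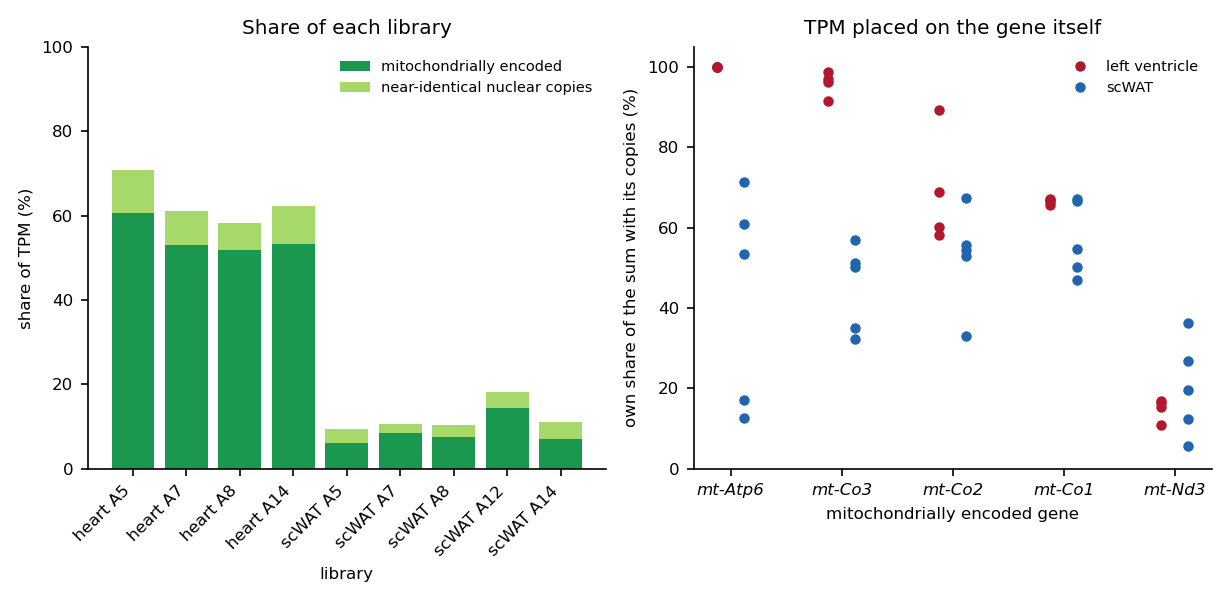
Left, share of TPM (y axis, percent) taken by mitochondrially encoded genes and by 7 near-identical nuclear copies in each of the 9 libraries (x axis). Right, for 5 mitochondrially encoded genes (x axis), the share of the summed TPM of gene and copies that was placed on the gene itself (y axis, percent), 1 point per library. In heart mt-Atp6 holds 100% in every library, and in scWAT it holds 12.5% to 71.3%.

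Nuclear genes of the respiratory chain were higher in heart, by smaller folds than the muscle genes above. Of 36 complex I genes, all tested, 21 were higher in heart and 0 in scWAT, with a median log2 fold change of 0.38, and of 40 genes of complexes III to V, 25 and 2, with 0.65. All tested genes had a median of -1.22, and the nuclear-coded sum for complex I ran from 10304 to 13087 TPM in heart and from 8419.7 to 10208 TPM in scWAT. Cox7a1, the muscle form of subunit VIIa, stood at 1146, 1217, 1342 and 1424 TPM in the hearts of A5, A7, A8 and A14, against 14.7 to 65.6 TPM in scWAT (log2 fold change 5.07, SE 0.34, adjusted p = 4.1e-08). Atp5g1, a gene for the c subunit of ATP synthase, had a log2 fold change of 3.91, Cox5a of 2.17, Ndufa5 of 1.5 and Ndufs1 of 1.33. The 2 higher in scWAT were Cox6a1 and Cox8a, the widely expressed partners in the pairs above. Cox6a1 stood at 66.7, 87.4, 111 and 88.9 TPM in heart and at 1036, 797, 847, 896 and 1188 TPM in scWAT.

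In the citric acid cycle and pyruvate list, 14 of 22 members, all tested, were higher in heart and 1 in scWAT (median log2 fold change 0.52). Idh2, which makes NADPH in mitochondria, ran from 526 to 911 TPM in heart and from 169 to 232 TPM in scWAT, and Ogdh, of the oxoglutarate dehydrogenase complex, from 297 to 589 TPM and from 165 to 209 TPM. The 1 in the other direction was Pcx, pyruvate carboxylase, which refills the cycle and supplies citrate for lipid synthesis. Pcx stood at 725, 603, 325, 358 and 580.0 TPM in the scWAT of A5, A7, A8, A12 and A14, against 5.21, 8.90, 10.6 and 10.5 TPM in the hearts of A5, A7, A8 and A14 (log2 fold change -5.70, SE 0.27, adjusted p = 1.9e-09). Of 25 genes of fatty acid oxidation, all tested, 7 were higher in heart, 5 in scWAT and 12 turned with scaling. Hadha and Hadhb, the subunits of the trifunctional protein, were among the 7 (log2 fold changes 1.17 and 1.44), and the 5 included Acsl1, which activates fatty acids for both oxidation and storage, at 984 to 1617 TPM in scWAT and 197 to 283 TPM in heart, and Slc27a1, a fatty acid transporter, at 228 to 710.3 TPM and 24 to 71.6 TPM.

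Glucose genes differed by form rather than in 1 direction. Of 31 tested (32 listed), 11 were higher in heart and 7 in scWAT, with a median log2 fold change of 0.19. Pfkm, the muscle phosphofructokinase, stood at 250.04, 321, 338 and 304 TPM in the hearts of A5, A7, A8 and A14, against 15.5 to 22.9 TPM in scWAT. Ldhb, the lactate dehydrogenase subunit that predominates in heart, ran from 709.8 to 943 TPM in heart and from 90.4 to 108 TPM in scWAT. Pfkfb3, which makes an activator of phosphofructokinase, was higher in scWAT at 395, 435, 433, 438 and 596 TPM in A5, A7, A8, A12 and A14 against 2.03 to 4.35 TPM in heart. Slc2a4, the insulin-responsive glucose transporter that muscle and fat share, overlapped between the tissues, at 131, 197, 221 and 197 TPM in heart and 143, 178, 192, 122 and 153 TPM in scWAT (log2 fold change 0.23, SE 0.19, adjusted p = 0.25), and passed in favour of heart under the other 3 scalings.

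Of 17 tested genes of the creatine and adenylate shuttles (19 listed), 8 were higher in heart and 6 in scWAT. Ckm, the creatine kinase of muscle cytosol, ran from 1118 to 1411 TPM in heart, and in scWAT stood at 3.86, 133, 5.06, 0.0685 and 0.0318 TPM in A5, A7, A8, A12 and A14. Slc25a4, the ADP/ATP carrier of muscle mitochondria, ran from 1669.6 to 2393 TPM in heart and from 191 to 257 TPM in scWAT. Gamt, the last step of creatine synthesis, was higher in scWAT at 23.0 to 103 TPM against 2.37 to 3.99 TPM. In branched-chain amino acid breakdown, 1 of 18 genes, all tested, was higher in heart and 3 in scWAT: Ppm1k, the phosphatase that activates the pathway's dehydrogenase, stood at 15 to 28.9 TPM in heart and 2.91 to 6.51 TPM in scWAT, and Bcat1, a cytosolic transaminase, at 0.296 to 0.414 TPM and 9.91 to 67.8 TPM. Among 22 regulators of metabolism, all tested, 6 were higher in each tissue. In heart these included Ppargc1a, a coactivator of mitochondrial genes, at 18.6, 47.9, 33.1 and 23.3 TPM in A5, A7, A8 and A14 against 1.79 to 6.30 TPM in scWAT, its muscle-restricted partner Perm1 at 58.5 to 108 TPM against 0.0937 to 0.436 TPM, and the orphan receptors Esrrb and Esrrg (log2 fold changes 2.76 and 1.90).

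**Figure D4:**
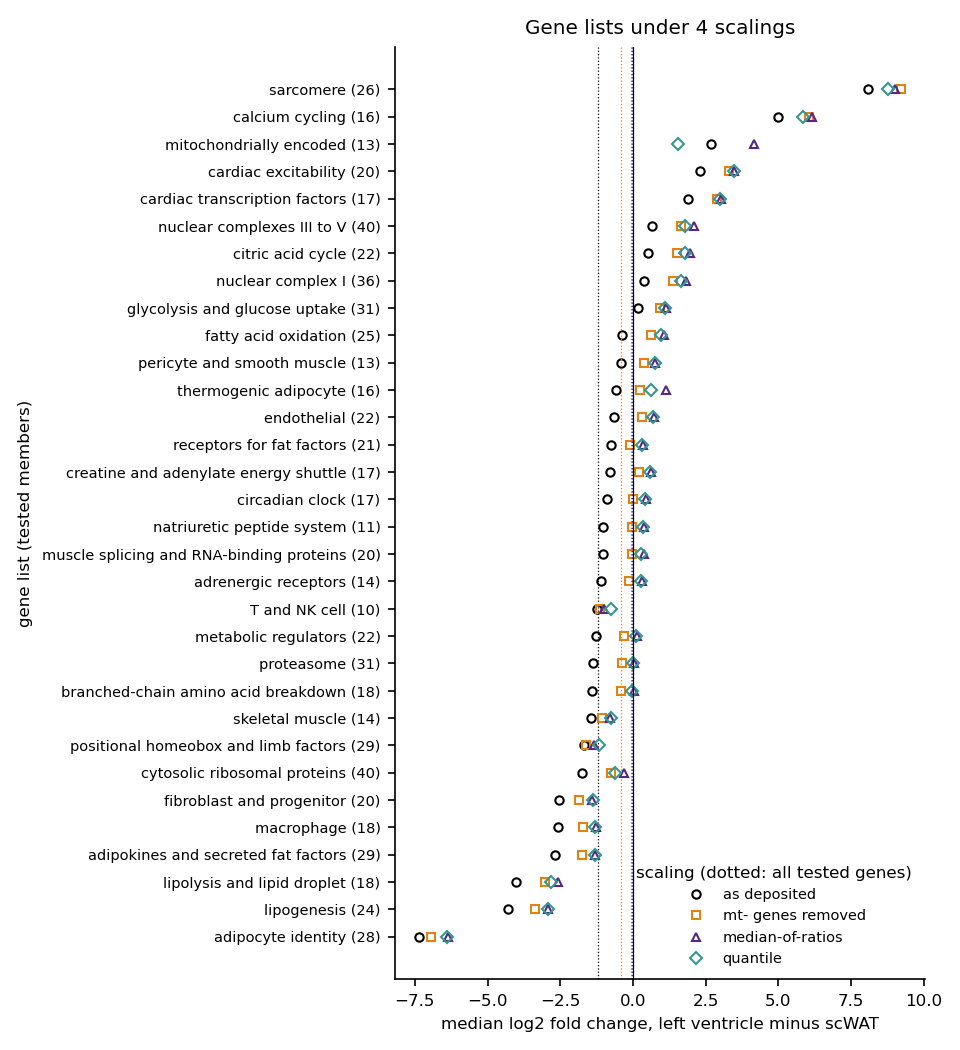
Median log2 fold change, left ventricle minus scWAT (x axis), of each gene list with at least 10 tested members (y axis, number in brackets), under 4 scalings shown by symbol. Dotted lines mark the median of all tested genes under each scaling, -1.22 as deposited and -0.03 to -0.43 under the other 3. Lists at the top (sarcomere 8.08) and bottom (adipocyte identity -7.35) keep their side under all 4, while the endothelial list crosses 0, from -0.67 as deposited to 0.71 with median-of-ratios scaling.

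Genes that record position along the body axis were higher in scWAT in most members. Hox genes are switched on by the level of the trunk at which a tissue forms. Of 29 tested positional factors (31 listed), 24 were higher in scWAT, 22 of them Hox genes, and 2 in heart, the T-box genes Tbx5 and Tbx20. Hoxc8 stood at 72.6, 83.8, 66.2, 55.5 and 64.0 TPM in the scWAT of A5, A7, A8, A12 and A14, against no more than 0.0472 TPM in heart (log2 fold change -6.06, SE 0.16, adjusted p = 1.3e-11). Hoxc10 was listed at 0 in all 4 hearts and stood at 15.1 to 30.4 TPM in scWAT, and Hoxa10 at 11.1 to 24.7 TPM in scWAT and at 0.0174 TPM in the heart of A8 and 0 in the other 3. Tbx15, a limb and fat depot factor, ran from 9.54 to 11.2 TPM in scWAT and from 0.22 to 0.674 TPM in heart. Shox2, known from limb buds and the sinus node, ran from 10.9 to 18.6 TPM in scWAT and from 0.0812 to 0.245 TPM in heart.

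Markers of the ventricle and of neighbouring atrium checked the dissection labels. The defining atrial genes Myl7, Bmp10 and Sln stood at no more than 0.451, 0.0432 and 0.041 TPM in the 4 hearts, where Myl2 stood at 7536 TPM or more and Irx4 at 5.11 TPM or more. Other genes of the atrial and conduction list were present in heart. Kcnj3, a potassium channel subunit, ran from 18.6 to 27.1 TPM in heart and from 0 to 0.0407 TPM in scWAT, and Nppa is given above. The summed level of the 13 genes was 134 to 353 TPM in heart and 71.1 to 104 TPM in scWAT. Myl4, a light chain of atrial and fetal muscle, was higher in scWAT, at 46.5 to 79.1 TPM against 0.934 to 1.85 TPM in heart. Of 15 epithelial markers of skin and mammary gland, 3 were tested, and 2 of these passed in favour of scWAT as deposited. The number at 0 was 3 in the scWAT of A5 and 7, 6, 6 and 6 in that of A7, A8, A12 and A14. Krt5 was at 2.0 TPM in A5 and 0 in the other 4, and Epcam at 1.27 TPM in A5 and at most 0.0843 TPM elsewhere. Most of the summed level of that list, 2004 to 4836 TPM in scWAT, was Trf. Trf, the transferrin gene, stood at 1984 to 4832 TPM in scWAT and 10.2 to 24.9 TPM in heart.

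Marker lists of other cell types are read against all tested genes, of which 33.4% were higher in scWAT and 8.52% in heart under all scalings. In these bulk samples, fewer cells of a type and less RNA per cell cannot be told apart. Of 18 tested macrophage genes (19 listed), 16 were higher in scWAT and 0 in heart, and the summed level of the list ran from 197 to 317 TPM in heart and from 942 to 2422 TPM in scWAT. Cd68 stood at 58.0, 75.2, 73.3, 42.9 and 104.9 TPM in the scWAT of A5, A7, A8, A12 and A14, against 3.86 to 7.42 TPM in heart (log2 fold change -3.52, SE 0.25, adjusted p = 6.8e-08), and C1qb, of complement, at 112 to 327 TPM and 24.5 to 39.1 TPM. Of 20 fibroblast and progenitor genes, all tested, 12 were higher in scWAT and 1 in heart. Col3a1, a fibrillar collagen, ran from 682 to 1864 TPM in scWAT and from 13.7 to 41.3 TPM in heart, and Dpt, a matrix protein of the dermis and fat, from 1066 to 1670.2 TPM and from 23.7 to 40.4 TPM. The 1 in heart was Tcf21, a factor of cardiac fibroblasts, at 2.65, 4.28, 4.36 and 3.79 TPM in A5, A7, A8 and A14 and at most 0.0502 TPM in scWAT.

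Endothelial genes gave few calls that held under all scalings. Of 22, all tested, 4 were higher in scWAT, 0 in heart, and 14 turned with scaling. The 4 were Gpihbp1, which carries lipoprotein lipase across the capillary wall, Plvap, of fenestrae and caveolae, Cldn5, of tight junctions, and Rgcc. Gpihbp1 stood at 48.3, 68.2, 70.4 and 63.9 TPM in the hearts of A5, A7, A8 and A14, against 273, 242, 348, 278 and 261 TPM in the scWAT of A5, A7, A8, A12 and A14. Kdr, the main receptor for VEGF, overlapped, at 20.5 to 41.2 TPM in heart and 18.3 to 40.2 TPM in scWAT, as did Flt1, and both passed in favour of heart under the other 3 scalings. Of 7 tested genes of Schwann cells and nerve (8 listed), 5 were higher in scWAT and 0 in heart, such as Mbp, a myelin protein gene, at 20.3 to 41.0 TPM and 0.575 to 2.17 TPM. Prox1, on the list for lymphatic endothelium and also a factor of cardiomyocytes, was higher in heart at 4.47 to 10.6 TPM against 0.0263 to 0.178 TPM, and Wt1, a gene of the epicardium, at 1.22 to 4.60 TPM against 0.0608 to 0.155 TPM.

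The remaining cell type lists were short or mixed. Of 10 tested genes of T and NK cells (12 listed), 5 were higher in scWAT and 0 in heart, and of 3 tested B cell genes (8 listed) 0 in either. Of 13 genes of pericytes and smooth muscle, all tested, 1 was higher in heart and 2 in scWAT, of 7 lymphatic genes, all tested, 2 and 1, and of 5 tested mesothelial and epicardial genes (8 listed) 2 and 0. Of 7 tested erythrocyte and platelet genes (9 listed), 1 was higher in scWAT, the platelet and macrophage chemokine Pf4. The summed level of that list, which holds the globins, was 32591 TPM in the scWAT of A12, against 1881 to 12522 TPM in the other 4 and 1363 to 2924 TPM in heart. Of 16 tested genes of thermogenic adipocytes (20 listed), 7 were higher in heart and 5 in scWAT, and those in heart, Cox7a1, Cox8b, Ckmt2 and Cpt1b among them, are also genes of heart muscle. Of 14 tested adrenergic genes (18 listed), 4 were higher in heart and 5 in scWAT, and of 8 tested atrial and conduction genes (13 listed) 2 and 2. The 14 tested skeletal muscle genes (17 listed) gave 1 and 1, the 3 tested epithelial genes (15 listed) 0 and 1, and the 14 tested liver genes (16 listed, chosen after values were seen) 0 and 1. Of 4 tested sex-linked genes, 0 passed in either direction under all scalings. Among them Ddx3y, of the Y chromosome, stood at 16.6 to 21.4 TPM in heart and 32.8 to 45.9 TPM in scWAT, so that it was present in all 9 libraries.

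Housekeeping genes showed how far the shift of all genes carries. The 40 genes for cytosolic ribosomal proteins were all tested and all 40 passed in favour of scWAT as deposited, where the background is 77.7%. Under all scalings 16 did (background 33.4%) and 0 in favour of heart, with a median log2 fold change of -1.76 as deposited and -0.30 with median-of-ratios scaling. Rpl11, for example, ran from 123 to 149 TPM in heart and from 776 to 954 TPM in scWAT. Of 31 proteasome genes, all tested, 31 passed as deposited and 4 under all scalings, with medians of -1.39 and 0.05. Of 17 tested clock genes (18 listed), 1 was higher in scWAT, Nr1d1, at 94.6 to 165 TPM against 9.47, 38.0, 21.6 and 27.1 TPM in the hearts of A5, A7, A8 and A14, and the time of day of collection is not stated in the labels.

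Some scWAT libraries stood apart in genes known from other tissues, and the origin of these transcripts was not tested. Fast skeletal muscle genes in the scWAT of A7 stood far above the other 4 libraries: Myh4, a fast myosin heavy chain, at 1.91, 37.2, 0.124, 0 and 0.0143 TPM in A5, A7, A8, A12 and A14, Tnnt3, a fast troponin, at 3.20, 214, 13.8, 0.723 and 1.46 TPM, and Mylpf, a fast light chain, at 5.62, 172, 13.1, 4.91 and 4.23 TPM. The summed level of the skeletal muscle list was 1378 TPM in A7 and 189 to 302 TPM in the other 4. Without both libraries of A7, 1063 genes were higher in heart and 10272 in scWAT as deposited. Genes of liver in the scWAT of A5 and A14 stood above the other 3: Apoa2, an apolipoprotein, at 73.6, 0.795, 0.864, 2.71 and 47.1 TPM in A5, A7, A8, A12 and A14, Fabp1, the liver fatty acid binding protein, at 43.6, 0.401, 0, 0.641 and 20.0 TPM, and Ttr, transthyretin, at 18.6, 0.293, 0.0302, 0.0846 and 10.7 TPM. Alb, which encodes albumin, did not share that split, at 153, 52.9, 130.4, 94.0 and 80.2 TPM. In the hearts of A5, A7, A8 and A14, Apoa2 stood at 1.05, 5.92, 1.60 and 4.04 TPM. Fabp1 stood there at 0, 4.21, 0.423 and 0.917 TPM, so both were also present in heart, highest in that of A7. A5 and A14 are also the 2 scWAT libraries named in another style than A7, A8 and A12. Of 33641 gene symbols, 11 stood at 10 TPM or more in both and under 1 TPM in the other 3, and 2 went the other way. Of the 11, 5 are annotated as pseudogenes. The highest were Gm14303, Gm8430 and Rps12l1, and Fabp1, Apoa1 and Ttr were among the rest. Without the scWAT of A5 and A14, 1141 genes were higher in heart and 10294 in scWAT as deposited, where all 9 libraries gave 1174 and 10661.

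Genes that varied most between mice of a tissue were largely pseudogenes or predicted genes. In scWAT, Gm14303 stood at 923 and 1214 TPM in A5 and A14 and at 0 in A7, A8 and A12, and Gm8430 at 139 and 155 TPM and at 0. The ribosomal pseudogenes Rpl14-ps1 and Rps13-ps1 ran the other way, at 103 to 125 TPM and 90.7 to 125 TPM in A7, A8 and A12, and at 0 or 3.30e-06 TPM in A5 and A14. Rps13-ps2 stood at 0.565 TPM in A8 and at 77.7 to 262 TPM in the other 4. In heart, Rps12l1 stood at 30.4 and 22.1 TPM in A7 and A14 and near 0 in A5 and A8, Gm10288 at 26.8 and 21.7 TPM in A5 and A14 and at 0 in A7 and A8, and Gm21961 at 7.46 and 28.5 TPM in A7 and A8 and at 0 in A5 and A14. Gm26602 and Gm15899 ran from 0 to 14.8 TPM and from 9.78e-05 to 14.6 TPM in heart. Pseudogenes can share reads with the genes they derive from, so these values are uncertain, and how reads were shared was not tested.

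The libraries labelled knockout, in which no test was made here, gave the same direction for most of the genes called. Of the 5751 genes called under all scalings (41.9% of those tested), 5646 had a mean difference of the same sign between the 4 hearts and 3 scWAT libraries labelled knockout. Of 1699 that were also 4-fold or more from the median of all genes, 933 higher in heart and 766 in scWAT, 1652 had the same sign. With each of these scWAT libraries left out the number with the same sign was 5634 to 5643 of 5751, and with A26 alone 5568, alternatives chosen after the data were seen. The signs were taken from the deposited values without rescaling. On those values, 77.7% of tested genes passed in favour of scWAT in wild-type mice. The share of the same sign over all tested genes was not computed. These counts therefore do not separate differences of single genes from the shift of all genes. Cacna1s, a skeletal calcium channel subunit, was among the called genes that did not keep the sign. In wild-type mice it was higher in heart, at 4.94 to 7.57 TPM against 0.107 to 1.01 TPM in scWAT, and its difference in the libraries labelled knockout was -1.36 on the log2 scale, and -0.30 with A26 as the only scWAT library. In the scWAT labelled knockout of A24, A26 and A30 it stood at 10.5, 3.91 and 18.1 TPM. The 17 skeletal muscle markers, 0 of them at 0 in these libraries, summed there to 5455, 509 and 11345 TPM, with Ckm at 736, 36.9 and 1233 TPM, against 189 to 1378 TPM in wild-type scWAT and 243 to 2443 TPM in the hearts labelled knockout. The part of these transcripts in the turned direction was not tested.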

How the data were processed

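RNA sequencing values of 4 left ventricles and 5 scWAT samples of wild-type mice were analysed, grouped by their labels. Each deposited file gives 1 TPM value per gene symbol, scaled by the authors to 1e+06 per library. Per the labels' protocols, RNA was extracted with Trizol and libraries were made with an Illumina TruSeq kit. Which aligner, quantifier and genome build produced the TPM is not given in the sources used here. TPM keeps no depth, so the depth is unknown and no counting error can be given.

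From these values, log2(TPM + 1) was fitted with limma 3.58.1 in R 4.3.3 (empirical Bayes with a trend, 2-sided) over 13727 genes of at least 1 TPM on average in either tissue, with Benjamini-Hochberg adjustment over all of them and a threshold of 0.05. The procedure was tested on simulated data. Scalings were repeated with mitochondrially encoded genes removed, with median-of-ratios factors and with quantile normalization. Other alternatives were pseudocounts of 0.25 and 5, no filter or a filter of 5 TPM, robust variance moderation, each library left out, the mouse as a block, a shared fit over all 16 libraries, and a further limit of 4-fold. After the data were seen, 3 were added, namely removal of mitochondrial genes with their copies, and fits without the scWAT of A5 and A14 or without both libraries of A7. p-values measure the spread between libraries within each tissue. The main fit took the 9 libraries as independent, though 4 of the mice gave both tissues.

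Both tissues of A5, A7, A8 and A14 carry the same mouse number and so pair. Deviations from the tissue means over 10970 genes correlated at r = 0.0799, 0.0388, 0.130 and 0.173 within these mice, and at -0.0935 to 0.0843 between different mice.

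Nuclear copies were found with blastn 2.17.0 against GENCODE transcripts (identity of at least 95%, at least 80% covered). Motifs were searched on both strands of 250 bases before RefSeq starts (GRCm38.p6). The 8 motifs, which may overlap, were the MEF2, CArG, C/EBP, estrogen-related receptor and DR1 sites by name, and the MCAT, GATA and E-box sites as spelled above.

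Genes were named by rule: Elavl1, the 12 genes furthest apart per direction (at least 50 TPM, no overlap, no predicted or mitochondrial genes), the 10 nuclear genes of highest mean per tissue, up to 4 called members of each list in its main direction and up to 3 in the other, paralog pairs, mitochondrially encoded genes, the 6 widest-ranging genes per tissue and sex-linked genes. Other genes named, the liver list, Pttg1 and Cyfip2 were chosen after values were seen. Some genes that the rule names are not reported here. The members and lists were chosen with earlier results of these data known.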

Additional observations from a re-analysis of the deposited data

Results flagged for a closer look

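In groups of 4 or 5 libraries, a highest or lowest library whose gap to its nearest neighbour took up most of the group's range was picked out by Dixon's 95% limit. Of 400 groups tested, 34 met it. Some genes were named for their wide range between mice or after values were seen, and all share the same libraries. The count can therefore not be set against a chance rate of 1 in 20. No explanation was tested.

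In the scWAT of A7, 9 muscle genes stood high: Acta1 at 195 TPM, Ckm at 133, Cox6a2 at 5.72, Myh4 at 37.2, Mylpf at 172, Pgam2 at 19.8, Pygm at 18.6, Tnnc2 at 123 and Tnnt3 at 214 TPM. In the other 4 scWAT libraries Acta1 ran from 47.1 to 74.7 TPM and Tnnc2 from 2.32 to 12.8 TPM.

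In the heart of A5, 10 genes stood low: Ckmt2 at 877 TPM, Col3a1 at 13.7, Dcn at 152, Fasn at 0.995, Gja1 at 60.3, Mcam at 8.51, Ndufs1 at 178, Ogdh at 297, Ryr2 at 70.3 and Tbx20 at 6.01 TPM. The same heart stood high for mt-Co1, at 96074 TPM, and for the mitochondrially encoded share, at 60.6%. Its levels were lower across genes, with a median-of-ratios factor of 0.379 against 0.612 to 0.700 in the other hearts. In it 10354 genes reached 1 TPM, against 11503 to 11836 in the others. Whether the 10 genes stood lower than genes at large was not tested. In the heart of A8, Car3 at 7.45 TPM, Cfd at 19.5 TPM and Mbp at 2.17 TPM stood high.

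In the scWAT of A12, Cd79a, of B cells, stood high at 7.33 TPM, as did mt-Nd4 at 8927, mt-Nd5 at 4517 and mt-Nd6 at 6981 TPM and the mitochondrially encoded share at 14.4%. In the scWAT of A8, Eno1 stood low at 490.1 TPM and Tbx5 high at 1.58 TPM. In the scWAT of A14, Pfkfb3 stood high at 596 TPM and Plin5 at 53.9 TPM, and in that of A5 Rps12l1 at 123 TPM.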

How the results depend on the processing

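The counts of calls moved with the scaling. Genes higher in heart numbered 1174 as deposited, 2897 without mitochondrially encoded genes, 4535 with median-of-ratios scaling, 4349 after quantile normalization, 3852 without mitochondrial genes and copies, and 401 with a limit of 4-fold. Genes higher in scWAT numbered 10661, 6766, 4632, 4864, 5645 and 2863 in the same order. Of the calls, 9.9% were higher in heart as deposited, 30% without mitochondrially encoded genes, 49.5% with median-of-ratios scaling, 47.2% after quantile normalization and 40.6% without mitochondrial genes and copies. Leaving out each library gave 1072 to 1372 and 10226 to 10783. With the mouse as a block over the 4 pairs, 1115 and 10785 genes passed, and 2720 and 6622 with the block and mitochondrially encoded genes removed. Of 235 named genes tested, 194 kept direction and side of the threshold in each of the 23 alternatives. Adrb1 lost its call under the block and without 1 library in 6 of 9 cases.

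Some genes turned direction (log2 fold changes follow, and the cause was not tested). With median-of-ratios scaling these were Ddx3y (0.36), Eif2s3y (0.39), Elavl1 (0.10), Gm28437 (0.36), Pttg1 (0.94), Rps12l1 (0.55), Rps13-ps2 (1.00) and Slc25a5 (0.40). With quantile normalization these were Ddx3y (0.32), Eif2s3y (0.36), Elavl1 (0.10), Gm29216 (-0.055), Pttg1 (0.89), Rps12l1 (0.57), Rps13-ps2 (0.95), Slc25a5 (0.23) and mt-Cytb (-0.068). Without mitochondrially encoded genes Pttg1 (0.53), Rps12l1 (0.45) and Rps13-ps2 (0.67) turned, and with the copies removed too Ddx3y (0.17), Eif2s3y (0.21), Pttg1 (0.78), Rps12l1 (0.57), Rps13-ps2 (0.92) and Slc25a5 (0.21). With the block and mitochondrially encoded genes removed, Eif2s3y (0.0001), Gm28437 (0.042), Pttg1 (0.54) and Rps13-ps2 (0.78) turned, and with the block alone Gm21961 (-0.089). Without the scWAT of A5 and A14, Apoa1 (0.52), Apoa2 (0.67), Fabp1 (0.56), Gm21961 (-0.78), Rps12l1 (2.37) and Rps13-ps2 (1.02) turned, without both libraries of A7 Rps13-ps2 (0.045), and with a pseudocount of 0.25 Rps12l1 (0.12). With 1 library left out, Gm21961 ran from -0.64 to 0.99, Pttg1 from -0.88 to 0.0365, Rps12l1 from -0.91 to 1.09 and Rps13-ps2 from -1.67 to 0.18.

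TPM fixes the total of each library, so these data give relative levels and not RNA per cell. Tissue and sequencing run cannot be told apart, and genes of near-identical sequence are uncertain.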

Other observations

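Pttg1, which encodes securin, and Cyfip2, of the complex that drives actin branching, were picked after their values were seen. Pttg1 stood at 35.7, 4.40, 28.6 and 4.79 TPM in the hearts of A5, A7, A8 and A14. In scWAT the values were 38.7, 6.11, 41.9, 16.3 and 8.01 TPM for A5, A7, A8, A12 and A14. Both tissues of A5 and A8 were high, and both of A7 and A14 low. Cyfip2 stood at 18.2, 2.57, 19.7 and 4.35 TPM in the same hearts, with A5 and A8 again on top. In scWAT it did not share that order, at 0.854, 1.69, 1.44, 2.40 and 1.72 TPM in A5, A7, A8, A12 and A14. There A5 and A8 were the lowest.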
